A study of Mus musculus with 2 samples.

Results

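Proprioceptor-like neurons of the dorsal root ganglion (DRG) were taken here as the neurons that carried both Pvalb and Ntrk3 transcripts. A neuron was a barcode with at least 5000 unique molecular identifiers (UMIs, counted transcripts), at most 15% mitochondrial UMIs and at least 0.4% of its UMIs in Snap25, Stmn2, Tubb3 and Prph. A member had at least 2 Pvalb UMIs and at least 1 Ntrk3 UMI. It also had Calca under 0.1% of its UMIs, fewer than 3 Mrgprd UMIs and fewer than 10 of Sst plus Nppb, and did not hold Th and Slc17a8 together. This rule found 121 cells among 3924 neurons and 19717 barcodes. The flox library held 47 members among 1630 neurons (2.88%, exact Clopper-Pearson 95% interval 2.13 to 3.82) and the cKO library 74 among 2294 (3.23%, 2.54 to 4.03). The members were chosen by their measured Pvalb, Ntrk3 and exclusion gene counts, so Pvalb, Ntrk3 and the excluded genes are described below and support nothing.

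The 2 libraries were single-cell RNA-seq of dissociated DRG from all axial levels of mice at postnatal day 4. One came from Ptges3 flox/flox mice and the other from mice that were Dhh CRE+ and Ptges3 flox/flox, so both carried the floxed Ptges3 alleles and only the latter carried Cre. The Cre is driven by Dhh, a gene known for its use in the Schwann cell lineage rather than in neurons. Ptges3 encodes p23, an HSP90 cochaperone that is also known as cytosolic prostaglandin E synthase. How many animals went into each library, their sex, and the Cre line's background are not given in the sources used here. With 1 library per genotype there is no replicate, no difference between genotypes was tested, and every interval covers counting error only.

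Proprioceptive afferents carry signals from muscle spindles and Golgi tendon organs to the spinal cord, and some synapse directly on motor neurons. They depend on neurotrophin-3 from muscle, which acts on its receptor TrkC (Ntrk3). Runx3 directs their fate, and the ETS factor Er81 (Etv1) is needed for their connections and for the survival of some of them. Their thick myelinated axons are rich in neurofilaments, and mature cells hold the calcium buffer parvalbumin (Pvalb). TrkC and parvalbumin also occur in some touch neurons, so neither gene alone defines the class.

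Promoter sequence is shown for 4 genes of this programme, because the levels below turn on them and Runx3 is a sequence-specific DNA-binding factor. Each run is the 250 bases upstream of an annotated RefSeq start (GRCm38.p6), 5′ to 3′ on the gene's strand. Capitals mark the RUNX motif, searched as TGTGGT or TGCGGT on both strands (ACCACA or ACCGCA on the opposite strand). The Runx3 window, chr4:135120395-135120644 on the plus strand, lies before Runx3 and overlaps an exon of an opposite-strand predicted gene in GENCODE vM21. The Etv1 window, chr12:38779832-38780081 on the plus strand, is intronic in Etv1. The windows of Spp1 (chr5:104434861-104435110, plus strand) and Pvalb (chr15:78206401-78206650, minus strand) overlap no annotated gene.
Runx3: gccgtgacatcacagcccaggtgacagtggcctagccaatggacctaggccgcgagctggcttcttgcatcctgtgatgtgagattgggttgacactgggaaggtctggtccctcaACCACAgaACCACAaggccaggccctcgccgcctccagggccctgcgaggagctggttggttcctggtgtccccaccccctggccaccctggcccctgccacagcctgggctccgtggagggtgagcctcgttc
Etv1: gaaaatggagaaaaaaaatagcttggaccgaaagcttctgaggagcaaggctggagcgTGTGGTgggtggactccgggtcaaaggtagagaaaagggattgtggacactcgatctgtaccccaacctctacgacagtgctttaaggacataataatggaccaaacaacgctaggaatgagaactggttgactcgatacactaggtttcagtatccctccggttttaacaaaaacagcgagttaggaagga
Spp1: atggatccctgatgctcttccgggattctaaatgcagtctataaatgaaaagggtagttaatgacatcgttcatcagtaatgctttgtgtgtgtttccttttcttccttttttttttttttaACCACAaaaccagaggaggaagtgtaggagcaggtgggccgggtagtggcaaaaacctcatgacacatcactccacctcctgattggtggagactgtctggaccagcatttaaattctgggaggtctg
Pvalb: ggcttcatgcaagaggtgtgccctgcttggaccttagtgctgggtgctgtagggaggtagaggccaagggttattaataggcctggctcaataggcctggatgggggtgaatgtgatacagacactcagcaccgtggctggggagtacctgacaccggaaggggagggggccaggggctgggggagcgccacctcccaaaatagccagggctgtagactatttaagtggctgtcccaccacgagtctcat
The Runx3 window held 2 matches, the Etv1 and Spp1 windows 1 each, and the Pvalb window none of these letters. Each of the 4 genes has another annotated start, whose window is not shown and held 0 matches. For Runx3, Etv1 and Spp1 the window shown is thus the one with a match, and the display overstates how common the motif is. Of 32851 promoter windows of this length, 18.6% held the motif. Among the proprioceptor genes matched to the promoter table used (10 of 18 genes, 17 windows) the share was 23.5%, with 4 windows. Among the 15 genes that stood highest in the high-Pvalb cells defined below (13 matched, 17 windows) it was 5.88%, with 1 window. These are counts of letters in a window, not of bound sites.

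The label held for only a portion of the members. Pvalb per cell ran from 21.7 to 8284 UMIs per 1000000 UMIs (counts scaled to depth, CPM) in flox members, and the cells spread over more than one level. Members were therefore described in 3 ranges, whose bounds of 400 and 2000 CPM were chosen after the values were seen. At least 2000 CPM was found in 28 flox and 20 cKO members, called high-Pvalb cells here. The middle range held 8 flox and 24 cKO cells, and the range under 400 CPM held 11 and 30. Few cells lay near the upper bound: 4 flox and 2 cKO members lay within 1000 CPM below it, and 3 and 3 within 1000 CPM above it. The lower bound was less clean, since 0 flox and 6 cKO members lay within 100 CPM below it, and 2 and 6 within 100 CPM above it.

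**Figure D1:**
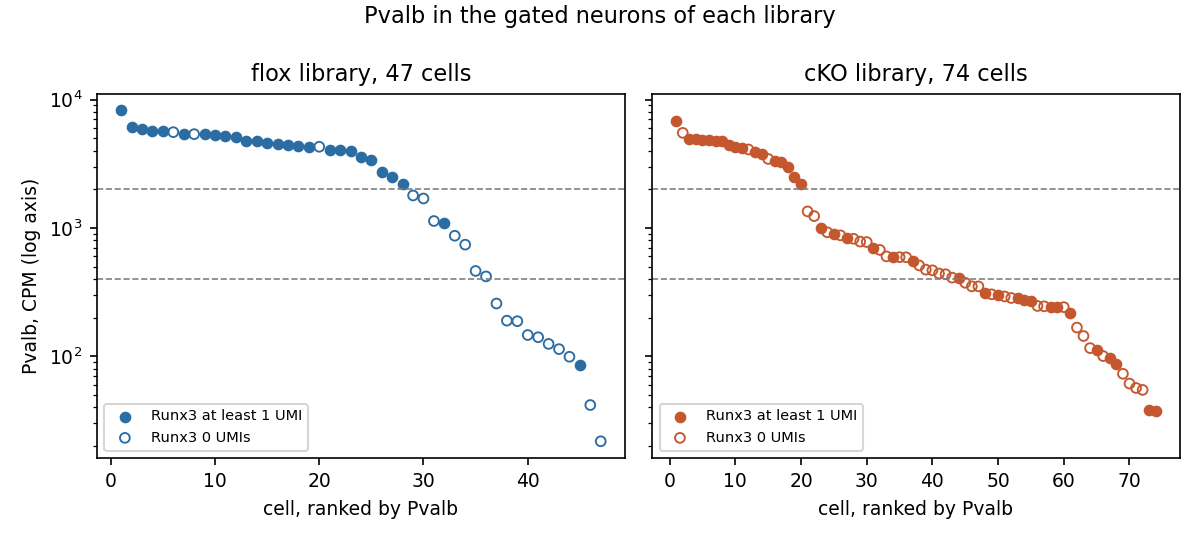
Pvalb (CPM, log axis) of each member, ranked from highest to lowest in each library, with dashed lines at 400 and 2000 CPM. Filled points had at least 1 Runx3 UMI: 25 of 28 flox and 17 of 20 cKO cells above 2000 CPM are filled, and few of the flox cells below it.

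Runx3 was not part of the rule. It was read in 25 of 28 flox and 17 of 20 cKO high-Pvalb cells. In the middle range it was read in 1 of 8 and 7 of 24 cells, and in the low range in 1 of 11 and 13 of 30. After every cell was thinned to 5000 UMIs it was read in 14 of 28 and 9 of 20 high-Pvalb cells, in 1 of 8 and 2 of 24 middle cells and in 1 of 11 and 9 of 30 low cells, against 9 of 1583 and 17 of 2220 of the other neurons. At that depth the intervals of the high and low ranges overlapped in both libraries, at 50% (30.6 to 69.4) and 9.09% (0.23 to 41.3) in flox and at 45% (23.1 to 68.5) and 30% (14.7 to 49.4) in cKO. Before thinning, the median was 23554.5 and 18453 UMIs in high-Pvalb cells and 48524 and 17261 UMIs in the other neurons. Runx3 was thus read in a larger share of high-Pvalb cells than of the other neurons in both libraries, and in cKO the low range held it as well. The high-Pvalb cells are called proprioceptor-like below, and the other members are described by their range.

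High-Pvalb cells made up 1.72% of flox neurons (28 of 1630, 1.14 to 2.47) and 0.872% of cKO neurons (20 of 2294, 0.533 to 1.34). The other neurons were read far deeper in flox than in cKO, and which neurons pass 5000 UMIs moves with depth. After thinning every barcode to 5000 UMIs, members by the same rule made up 1.72% of flox and 1.40% of cKO neurons. The part of depth in the shares was not tested further. The rule also left out cells at this Pvalb level. Of 43 flox and 31 cKO neurons with at least 2000 CPM of Pvalb, 8 and 8 had no Ntrk3 UMI, 8 and 0 had Calca at 0.1% or more, and 0 and 3 had 3 or more Mrgprd UMIs. Another 4 and 8 barcodes of at least 1000 and under 5000 UMIs reached this level.

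At the rule's own bounds the cells held less Etv1 and Runx3 than the high-Pvalb cells. The 2 flox and 14 cKO members with exactly 2 Pvalb UMIs held Etv1 at 7.14 and 33.5 CPM and Nefh at 1806 and 1548 CPM. Runx3 had no UMI in those flox cells and stood at 78.1 CPM in the cKO ones, where 6 of 14 held it. The 18 and 23 neurons with 1 Pvalb UMI, just outside, held Etv1 at 61.2 and 30.4 CPM, Nefh at 847 and 915 CPM and Runx3 at 14.98 and 8.69 CPM. Members with exactly 1 Ntrk3 UMI numbered 11 and 22, with Runx3 at 5.65 and 48.2 CPM. Neurons with Pvalb but no Ntrk3 UMI, just outside, numbered 28 and 40, with Runx3 at 11.0 and 12.1 CPM. In cKO the Runx3 level was higher just inside both bounds than just outside, and in flox it was not.

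Markers of other tissue were checked in the high-Pvalb cells. Isl1, Pou4f1 or Avil, genes of peripheral sensory neurons, were read in 99.5% of flox and 99.2% of cKO neurons. Of 16 genes of central neurons, 15 were at 0 in the high-Pvalb cells of both libraries, among them Gad1, Gad2, Slc32a1 and Chat, and the remaining gene was Meis2. Glial transcripts were present. The summed level of 18 Schwann cell and myelin genes ran from 540 to 24239 CPM over flox high-Pvalb cells and from 234 to 7147 CPM over cKO ones. Of those genes all 18 were read in each library. The summed level of 14 satellite glia genes ran from 1307 to 12603 CPM and from 847 to 7595 CPM, with Slc1a3 at 0 in cKO. These genes belong to the cells that wrap DRG neurons, so their UMIs were not read as expression by the neurons.

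The 121 members shared no barcode between libraries, of 23 barcodes that both libraries held in all. Median depth was 24137 UMIs (5030 to 142949) in flox members and 18096 (5074 to 112404) in cKO members, with 5640 and 4846 genes per cell. Median mitochondrial shares were 0.810% and 1.72%. Ptges3, the targeted gene, stood at 246 CPM in flox and 324 CPM in cKO members, and at 241 and 205 CPM in the high-Pvalb cells, with 274 and 391 CPM in the other neurons. Reads at a transcript's 3′ end need not report the deleted exons, so these values do not check the genotype. Dhh itself was read in members at 14.8 and 35.9 CPM.

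The proprioceptor genes were strongly enriched in high-Pvalb cells against all other neurons. Levels are UMIs summed over the cells of a set and scaled to CPM by the set's total. A gene was called higher when its ratio to the other neurons was at least 1 log2 unit in both libraries, among genes with at least 100 UMIs in each. Of the 12336 genes measured, 5.34% were called higher and 6.85% lower. Of 12 measured genes of the proprioceptor programme outside the rule, 10 were called higher and none lower. The list was drawn from what is known of proprioceptors and Pvalb chose the cells, so the count describes the cells and is no independent evidence of their identity.

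Runx3, the fate factor, stood at 154 CPM in flox high-Pvalb cells and 1.15 CPM in the other flox neurons, and at 125 against 1.85 CPM in cKO. Its log2 ratios were 7.06 (6.68 to 7.46) and 6.08 (5.59 to 6.55). Per cell it ran from 0 through a median of 140 to 343 CPM in flox, and from 0 through 93.99 to 357 CPM in cKO, so the libraries overlapped. Etv1, the ETS factor of proprioceptor connectivity, stood at 1047 against 99.3 CPM and at 676 against 88.3 CPM (log2 ratios 3.40 and 2.94). Every high-Pvalb cell held it, from 279 through 811 to 1804 CPM in flox and from 168 through 651 to 1540 CPM in cKO. Spp1, which encodes osteopontin and is used as a marker of proprioceptors, reached 31.3 against 1.25 CPM and 60.4 against 4.26 CPM. Whrn, the scaffold protein whirlin known from hair cells and proprioceptors, reached 39.8 against 4.33 CPM in flox and 46.3 against 4.65 CPM in cKO. The log2 ratios of Whrn were 3.20 and 3.31.

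Pvalb itself, which chose these cells, ran from 2216 through a median of 4668 to 8284 CPM in flox and from 2192 through 4257 to 6790 CPM in cKO. Ntrk3 ran from 61.2 through 290 to 989 CPM and from 37.3 through 180 to 826 CPM. Both ranges overlapped almost fully between the libraries. Nefh, the heavy neurofilament chain of large axons, ran from 402 through 1362 to 3186 CPM in flox and from 507 through 1065 to 2264 CPM in cKO. Its summed level was 2.54 and 1.56 log2 units above the other neurons. Slc17a7, the vesicular glutamate transporter VGLUT1 of large afferents, stood at 91.0 against 7.53 CPM and 90.6 against 9.52 CPM. Fxyd7, Cdh13, Kcna1 and Scn1a were the other genes called higher. Pou4f3 (log2 ratios -0.28 and 0.62) and Piezo2 (-0.29 and -1.12), the channel of proprioceptive mechanotransduction, were not called. Piezo2 was abundant in both sets, at 472 against 576 CPM in flox and 242 against 523 CPM in cKO.

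**Figure D2:**
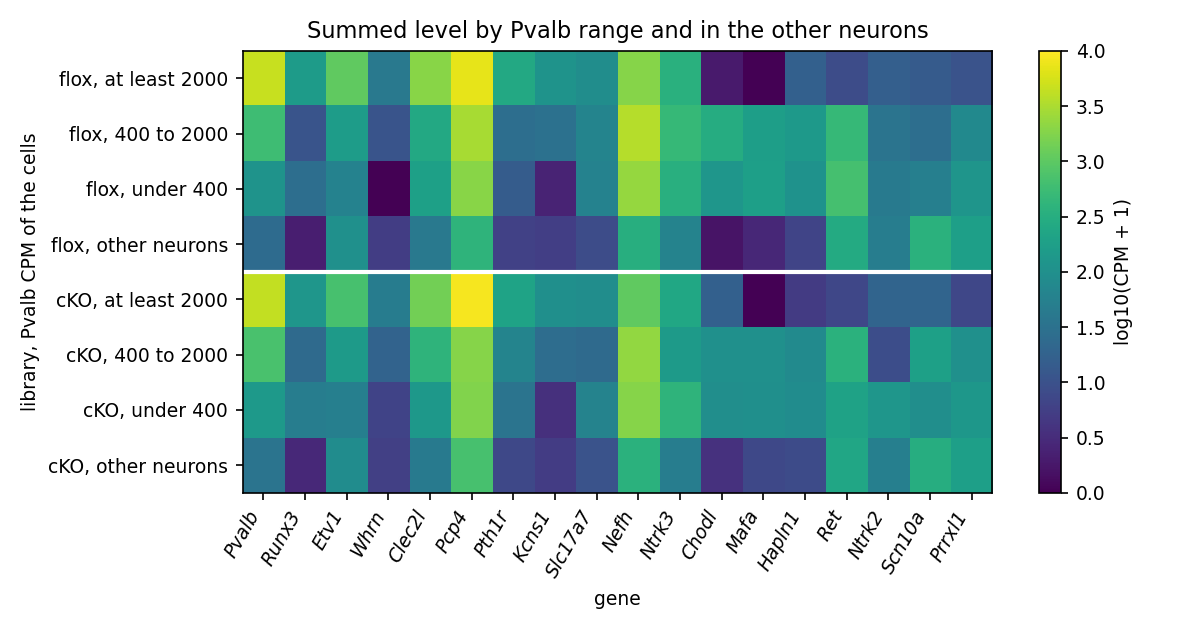
Summed level of 18 genes (log10 of CPM plus 1) in the 3 Pvalb ranges and the other neurons of each library. Runx3, Etv1, Clec2l, Pcp4 and Pth1r are brightest in the rows of at least 2000 CPM, while Chodl, Mafa and Ret are brighter in the middle and low rows than in those.

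By interval bound, the 15 genes that stood furthest above the other neurons in both libraries were Runx3, Clec2l, Pth1r, Cdh12, Kcns1, Vstm2b, Shh, Wls, Hs3st2, Pcp4, Rasgrp2, Fgf9, Mdga1, Slit2 and Ndst4. Clec2l, a C-type lectin-like membrane protein, stood at 1963 against 41.0 CPM in flox and 1409 against 43.4 CPM in cKO. Pth1r, the parathyroid hormone receptor, stood at 255 against 4.92 CPM and 205 against 6.29 CPM. Pcp4, a calmodulin-binding peptide, stood at 7119 against 406 CPM and 8790 against 685 CPM. It was read in every high-Pvalb cell, from 1543 through 6719 to 9642 CPM in flox and from 2112 through 6490 to 14136 CPM in cKO. Kcns1, a modulatory potassium channel subunit, stood at 114 against 4.61 CPM and 98.6 against 4.13 CPM. Secreted factors were among them. Shh, the morphogen Sonic hedgehog, stood at 51.2 against 1.56 CPM and 40.3 against 1.64 CPM, and Fgf9, a growth factor, at 69.2 against 2.79 CPM and 70.4 against 4.61 CPM. Wls, which carries Wnt proteins to the cell surface, had log2 ratios of 5.13 and 4.195. Slit2, an axon guidance ligand, had 5.54 and 3.95.

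The 10 genes that stood furthest below were Tmem233, Ret, Prrxl1, Ly86, Scn10a, Trarg1, Acpp, Nmb, Cd24a and Samsn1. Ret, the receptor of GDNF family ligands, stood at 7.58 against 280.1 CPM in flox and 6.04 against 235 CPM in cKO. Prrxl1, a homeodomain factor of cutaneous sensory neurons, stood at 9.48 against 182 CPM and 6.04 against 183 CPM. Scn10a, the sodium channel Nav1.8 of nociceptors, stood at 13.3 against 360.2 CPM and 18.1 against 310.1 CPM. The high-Pvalb cells thus lacked most of what marks pain and temperature neurons. Of 11 measured nociceptor genes outside the rule, 11 were called lower, although the absence of Calca and Mrgprd was required by the rule.

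A narrower comparison set the high-Pvalb cells against 337 flox and 387 cKO neurons with Ntrk2 or Ntrk3 and no Pvalb, receptors that myelinated touch neurons carry. Here 2.06% of 8977 genes were called higher and 6.84% lower. Of 9 measured programme genes 3 were still called higher, namely Etv1, Slc17a7 and Scn1a. Runx3 was not among the 9, because its UMIs in cKO, 62 of them in high-Pvalb cells, fell short of the minimum count. Its absence from the genes called higher is therefore not a result. Clec2l (log2 ratios 4.80 and 4.33) and Etv1 (4.70 and 3.39) were among the 15 furthest above, with Pth1r, Wls, Vstm2b, Lcp1 and Pcp4. Nefh was not called in it, while Nefl and Tuba4a were called higher. Prrxl1, Nrp1, Lypd1, Ret, Plxna4, Runx1, Trarg1 and Pou4f2 were among the 10 furthest below.

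Among 33 measured transcription factors of sensory subtypes, 5 were called higher in high-Pvalb cells than in all other neurons and 9 lower. Runx3, Etv1, Shox2, Onecut1 and Tox were higher. Shox2, a homeobox factor of touch neurons and of some proprioceptors, stood at 93.8 against 7.51 CPM in flox and 80.5 against 12.7 CPM in cKO. Onecut1 stood at 25.6 against 1.19 CPM and 34.2 against 2.39 CPM. Runx1, the paralogue of Runx3 that directs nociceptor fate, was lower, at 13.3 against 134 CPM and 12.1 against 158 CPM. Isl2, Pou4f2, Prdm12, Prdm8, Etv5, Klf7, Casz1 and Prrxl1 were the others called lower. Runx3 and Runx1 therefore had opposite patterns, each low where the other was high.

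Of 18 measured neurotrophic receptor genes other than Ntrk3, none was called higher and 7 lower. Ntrk2, the receptor of BDNF in touch neurons, stood at 15.2 against 49.2 CPM in flox and 18.1 against 51.8 CPM in cKO. Gfra1, a co-receptor of Ret, stood at 3.79 against 29.0 CPM and 4.02 against 25.1 CPM. Of 13 genes of low-threshold mechanoreceptors, Shox2, Slit2 and Cbln2 were called higher and Ntrk2, Ret and Gfra1 lower. Mafa, a factor of Ret-positive touch neurons, was at 0 UMIs in the high-Pvalb cells of both libraries, which allows up to 3 UMIs in the sum of each.

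Some genes of large, fast-conducting axons were higher. Of 9 measured neurofilament and axonal cytoskeleton genes, 4 were called higher and 1 lower. Nefl stood at 6579 against 2004 CPM in flox and 8005 against 2544 CPM in cKO. Nefm stood at 5036 against 643 CPM and 4135 against 947 CPM. Gap43, a growth cone protein, was the gene called lower, at 433 against 1020.1 CPM and 324 against 1084 CPM.

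Of 14 measured sodium channel genes, 4 were called higher and 3 lower. Scn1a, encoding Nav1.1, stood at 284 against 23.7 CPM in flox and 187 against 24.9 CPM in cKO. Scn2a was higher as well, at 69.2 against 15.6 CPM and 40.2 against 12.2 CPM. The nociceptor channels Scn10a and Scn11a were lower, and Scn11a stood at 11.4 against 276 CPM and 18.1 against 227 CPM. Scn1a was thus high where the Nav1.8 and Nav1.9 genes were low.

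Of 40 measured potassium channel genes, 8 were called higher and 11 lower. Voltage-gated channels known from fast-spiking cells were among the higher ones, such as Kcna1 (101 against 21.9 CPM in flox, 66.4 against 26.7 CPM in cKO) and Kcnc1 (73.9 against 14.3 CPM and 40.2 against 15.98 CPM). Hcn2, a channel of the hyperpolarisation-activated current, stood at 69.2 against 14.1 CPM and 64.4 against 14.2 CPM, and was 1 of 2 genes called higher among 20 calcium and HCN channel genes. Asic1, an acid-sensing channel, stood at 128 against 10.5 CPM and 74.5 against 10.4 CPM, and was called higher with Whrn among 12 mechanosensory genes.

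Of 29 measured synaptic genes, Slc17a7, Syt2, Sv2b, Vamp1 and Cplx1 were called higher and Syt4, Syt7, Stx1a and Cplx2 lower. Syt2, a fast calcium sensor of transmitter release, stood at 253 against 29.7 CPM in flox and 167 against 32.8 CPM in cKO. Vamp1, a vesicle fusion protein, stood at 196 against 32.9 CPM and 123 against 39.8 CPM. Cplx1 stood at 1064 against 301 CPM and 863 against 354 CPM, while its relative Cplx2 stood at 25.6 against 77.7 CPM and 6.04 against 88.0 CPM. Calcium handling genes other than Pvalb moved in both directions, with 4 higher and 4 lower of 22 measured. The calcium pump gene Atp2b2 stood at 418 against 80.1 CPM and 272 against 85.9 CPM.

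Of 23 measured axonal genes that signal to Schwann cells or build the node of Ranvier, 5 were called higher and 1 lower. Nrg1, the axonal signal for myelination, stood at 231 against 49.4 CPM in flox and 143 against 49.1 CPM in cKO. Cntnap2, a protein of the juxtaparanode, stood at 255 against 42.9 CPM and 205 against 36.3 CPM. Cntnap1, Nfasc and Spp1 were the others. Ntf3, which encodes neurotrophin-3, had no UMI in high-Pvalb cells of either library and was at least 2.12 and 1.32 log2 units lower than in the other neurons, against a floor of 3 UMIs over the set.

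Of 30 nuclear genes of oxidative phosphorylation, 8 were called higher and none lower. Their median log2 ratio was 0.86 in flox and 0.94 in cKO, beside -0.03 and -0.16 over all genes measured. Cox5a, a subunit of cytochrome c oxidase, stood at 2641 against 1128 CPM and 2984 against 1040.2 CPM. Against the Pvalb-negative Ntrk2 or Ntrk3 neurons none of the 30 was called. In glycolysis Eno2, Pkm, Ldhb and Slc2a3 were called higher of 22 measured, and Ldhb stood at 857 against 159 CPM and 706 against 168 CPM. None of 20 HSP90 and cochaperone genes and none of 23 cholesterol synthesis genes was called.

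The series title names prostaglandin E2 and sensory neuron excitability, so its receptors and the cAMP pathway were read in these cells. Of 35 measured genes 6 were called higher and 6 lower, so the list had no common direction. Ptger4, the receptor EP4, stood at 19.0 against 4.23 CPM in flox (20 UMIs) and 12.1 against 4.48 CPM in cKO (6 UMIs). Ptger3, the receptor EP3, stood at 3.79 against 16.1 CPM and 2.01 against 15.3 CPM. Adcy1, a calcium-stimulated adenylyl cyclase, stood at 129 against 26.8 CPM and 78.5 against 28.7 CPM. Ptger4 was thus called higher and Ptger3 lower, both from few UMIs.

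Hox genes record position along the body axis. Hoxc8 stood at 40.7 against 5.44 CPM in flox and 56.3 against 6.52 CPM in cKO, Hoxb9 at 21.8 against 2.84 CPM and 32.2 against 3.504 CPM, and Hoxc6 at 18.0 against 7.42 CPM and 24.1 against 8.47 CPM. Hoxb5, Hoxd8 and Hoxd9 were called lower, from at most 3 UMIs each. All axial levels were pooled, so no cell has a known level.

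**Figure D3:**
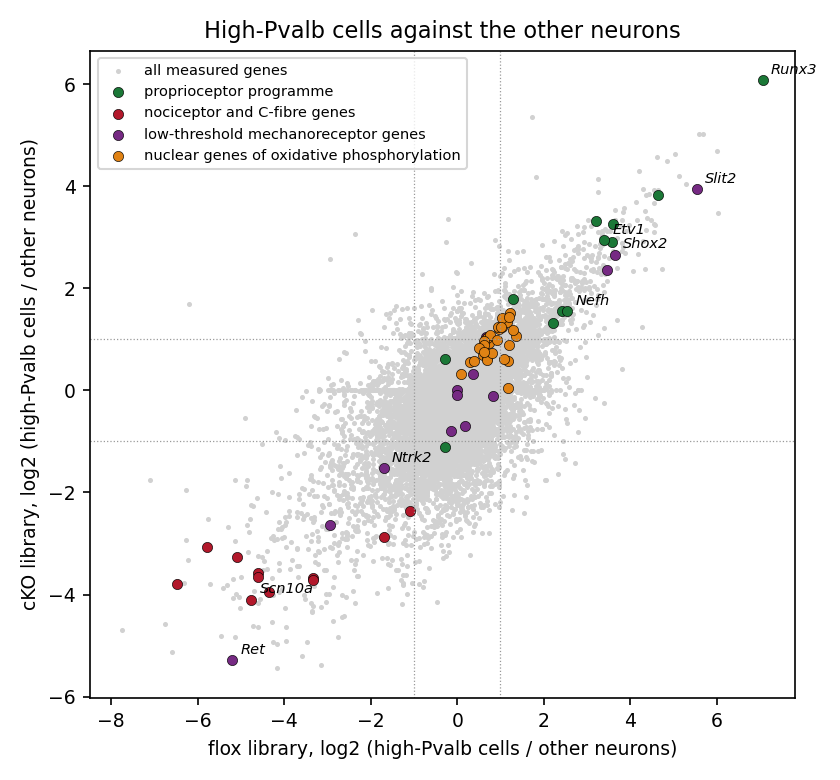
Log2 ratio of high-Pvalb cells to the other neurons, flox on the horizontal and cKO on the vertical axis, 1 point a gene, with 4 gene lists coloured and dotted lines at 1 and -1. Runx3 sits at 7.06 and 6.08 at the upper right, the nociceptor genes at the lower left, and the oxidative phosphorylation genes between 0 and 2 log2 units.

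Reported subtype genes of proprioceptors were looked for within the high-Pvalb cells. Heg1 is used for spindle afferents and Pou4f3 for tendon organ afferents in earlier work. In flox 10 cells held Heg1 without Pou4f3, 6 held Pou4f3 without Heg1, 5 held both and 7 neither. In cKO the counts were 2, 8, 1 and 9. Depth moved with these classes: the flox cells with Heg1 alone had a median of 66427 UMIs, against 21797.5 with Pou4f3 alone and 16680 with neither. After thinning to 5000 UMIs, 5 of 28 flox and 0 of 20 cKO cells held Heg1, and 6 of 28 and 4 of 20 held Pou4f3. Etv1 stood at 1221 CPM in flox cells with Heg1 alone and at 555 CPM in those with Pou4f3 alone, and at 717 and 673 CPM in the corresponding cKO cells. Spp1 stood at 11.9 and 92.5 CPM in the same cells and at 9.96 and 94.7 CPM in cKO. The classes rest on detection of low genes in few cells, and no cell was assigned a subtype.

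High-Pvalb cells also split by mitochondrial share. In flox 14 cells had under 0.5% mitochondrial UMIs and 14 more, and in cKO 7 and 13. Cells under 0.5% held less Etv1, at 809 against 1163 CPM in flox and 271 against 948 CPM in cKO. They held less Scn1a, at 196 against 327 CPM and 60.1 against 272 CPM. Spp1 was higher in them, at 63.5 against 15.5 CPM and 135 against 10.1 CPM. Apoe, a gene of satellite glia, was higher in them as well, at 2218 against 652 CPM and 1073 against 477 CPM, with S100a6 at 422 against 158 CPM and 1504 against 114 CPM. Runx3 was level in flox, at 162 against 149 CPM, and lower in cKO, at 70.2 against 161 CPM. The parts of RNA quality and of glial RNA in these differences were not tested.

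All 121 members together were nearer to the other neurons than the high-Pvalb cells alone. Of 12392 genes measured, 4.37% were called higher in the members than in the other neurons and 4.16% lower. Of 13 measured programme genes 10 were called higher and none lower, and of 13 genes of touch neurons 6 were called higher. Runx3 stood at 90.3 CPM in flox members, 6.30 log2 units above the other neurons. Chodl stood at 84.9 CPM in flox, 7.14 log2 units above the other neurons, and Mafa at 85.9 against 1.83 CPM, although Mafa was at 0 in the high-Pvalb cells. The sum over all members thus mixed genes of different cells, and the high-Pvalb cells were described on their own.

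Members under 2000 CPM of Pvalb were a mixture. They were split by their receptors at 500 CPM, also after the values were seen: Ret in 5 flox and 6 cKO cells, Ntrk3 without Ret in 4 and 9, Ntrk2 in 1 and 2, and none of these in 9 and 37. The Ret-high cells carried the genes of rapidly adapting touch neurons. Mafa stood at 358 CPM in flox and 341 CPM in cKO, and was read in 5 of 5 and 6 of 6 cells. Chodl, encoding chondrolectin, stood at 352 and 359 CPM in them. The deepest of the 6 cKO cells, of 112404 UMIs, held 68 of 81 Chodl UMIs and 62 of 77 Mafa UMIs. Without it the other 5 cKO cells stood at 115 CPM of Chodl and 132 CPM of Mafa. Without the deepest flox cell the other 4 stood at 242 CPM of Chodl and 356 CPM of Mafa. Runx3 was read in 0 of 5 and 1 of 6 of these cells.

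The Ntrk3-high cells were of another kind. They held Ntrk3 at 1072 CPM in flox and 1011 CPM in cKO, and Nefh at 3240 and 2458 CPM. Runx3 was read in 2 of 4 and 6 of 9 of them, at 68.9 and 114 CPM, while Mafa and Chodl had 0 UMIs in both libraries. Their Etv1 was low, at 105 and 71.9 CPM. Their Ntrk3 level was fixed by the split, and the Etv1 level was below that of the high-Pvalb cells. The remaining 9 and 37 cells held Scn10a, a nociceptor gene, at 160 and 158 CPM, below its level in the other neurons of each library. It was read in 9 of 9 flox and 22 of 37 cKO cells. Runx3 was read in 0 of 9 and 13 of 37 of the remaining cells, Mafa in 0 and 13, and Chodl in 0 and 9. These cells were therefore not of 1 kind. Their Nefh was 443 CPM in flox and 1811 CPM in cKO.

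The summed levels of the low and middle ranges were taken over this mixture of cells. In the low range 4.3% of genes were called higher than in the other neurons and 3.44% lower. In the middle range the shares were 2.95% and 1.96%. Of 13 measured touch neuron genes, 7 were called higher in the low range (among them Maf, Mafa, Shox2, Slit2, Calb1 and Cbln2) and 5 in the middle range, with none lower in either. Programme genes called higher were 8 of 11 in the low range, among them Runx3, Nefh, Slc17a7 and Scn1a, and 6 of 10 in the middle range. Single cells carried some of these sums. All 88 Chodl UMIs of the middle range in flox came from 1 cell, and 68 of 71 in the low range in cKO came from another. Mafa in the low range of cKO had 62 of 73 UMIs in 1 cell.

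Between the libraries, all 121 members were compared first. A gene was called past 0.5 log2 units (cKO over flox) among genes with at least 200 UMIs over both. Of 3150 genes, 5.11% were called higher in cKO and 8.25% lower, 161 and 260 genes. With TMM factors in place of totals the counts were 198 and 211, and with DESeq2 size factors 213 and 198, so the split of higher against lower depended on the scaling. The median of all measured genes was -0.03 with totals, 0.01 with TMM and 0.02 with DESeq2 factors. The members also differed in makeup, since 28 of 47 flox and 20 of 74 cKO members were high-Pvalb cells, and this was not separated from a difference between genotypes.

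Among the genes furthest above in cKO were Lars2, Hspa1a, Grik1, Ahnak, Scn10a, Nnat, Tmem233, Rprm and Tmem158. Lars2, a mitochondrial leucyl-tRNA synthetase, stood at 26.2 CPM in flox and 193 CPM in cKO members (log2 2.88, 2.46 to 3.33). Hspa1a, an inducible HSP70 gene, stood at 13.8 and 109.5 CPM (2.99, 2.41 to 3.62). Both were as far apart in the other neurons, where the log2 ratios were 2.47 and 2.72. Scn10a (1.74) is a gene of the mixed low and middle members. Ahnak was 1.93 over all members and 0.05 (-0.77 to 0.84) in high-Pvalb cells, and Grik1 was 2.18 and 0.92.

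Among the genes furthest below were S100a9, S100a8, Mbp, Pcp4l1, Hopx, Scg2, Mgll and Slit2. S100a8 and S100a9, neutrophil proteins, had log2 ratios of -6.28 and -6.30. Of 287 S100a8 UMIs in flox members 250 came from 1 cell, and without it the ratios were -3.34 and -3.56. Mbp, a myelin gene, had -2.93. Hopx was -2.15 over all members and -0.44 (-0.94 to 0.05) in high-Pvalb cells. Slit2 was -1.57 over all members and -1.56 (-2.19 to -0.98) in high-Pvalb cells, where it stood at 166 CPM in flox and 56.3 CPM in cKO.

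**Figure D4:**
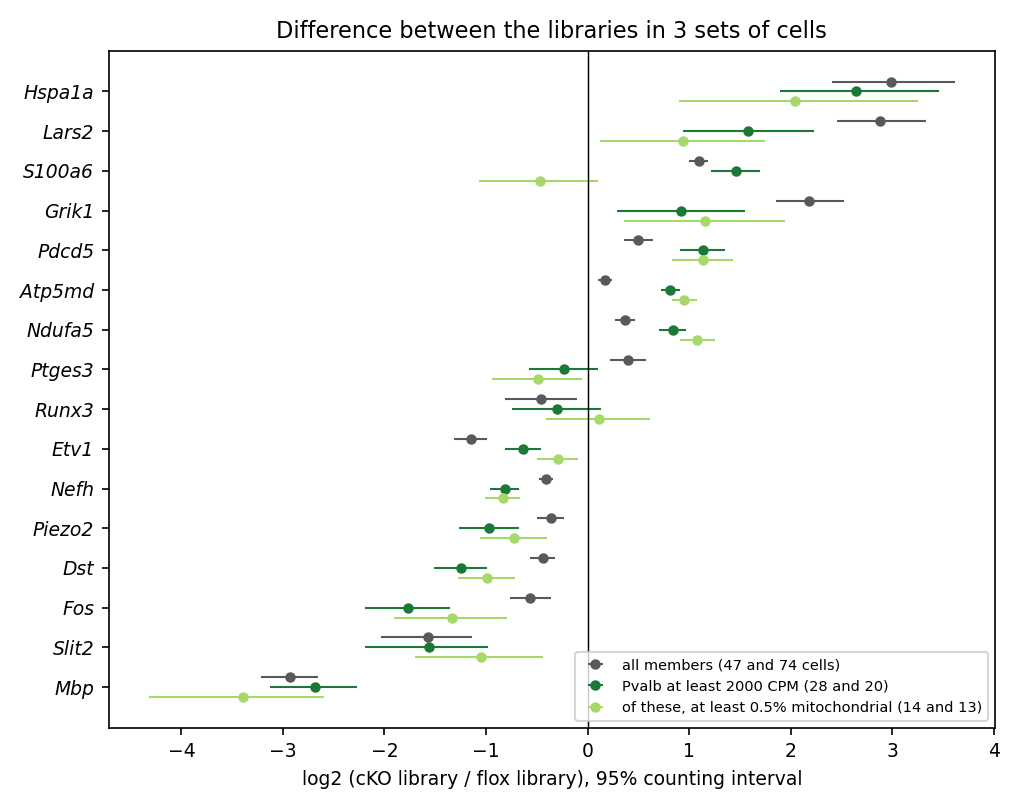
Log2 ratio of cKO to flox for 16 genes in all members, in high-Pvalb cells and in high-Pvalb cells with at least 0.5% mitochondrial UMIs, with 95% counting intervals. Hspa1a and Lars2 lie right of 0 and the myelin gene Mbp left of 0 in all 3 sets, while S100a6 lies right of 0 in 2 sets and at -0.47 in the third.

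Within the high-Pvalb cells, 28 flox against 20 cKO, 11.7% of 1373 genes were called higher in cKO and 17.6% lower. The genes furthest above were S100a6, Pdcd5, Tagln2, Bola2, Sec61g, Serf1, Atp5md, Ndufa5, Romo1 and Ndufaf2. S100a6, a calcium-binding protein, stood at 244 CPM in flox and 672 CPM in cKO (log2 1.46, 1.22 to 1.70). Its cell medians were 207 and 182 CPM, so the typical cells of the libraries did not differ in that direction. Among cells with at least 0.5% mitochondrial UMIs its ratio was -0.47 (-1.07 to 0.10), and that of Tagln2 was 0.15, beside 1.23 over all high-Pvalb cells. Pdcd5, by contrast, stood at 309 and 678 CPM (1.13), and its ratio was 1.13 in those cells too. Atp5md and Ndufa5, a subunit each of ATP synthase and complex I, had 0.82 and 0.84 in all high-Pvalb cells and 0.95 and 1.08 in cells with at least 0.5%.

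By summed level, several programme genes were lower in cKO high-Pvalb cells. Of 6 measured with enough UMIs, 4 were called lower and none higher, with a median of -0.62 beside 0.00 over all measured genes. Etv1 stood at 1047 CPM in flox and 676 CPM in cKO (-0.63, -0.81 to -0.45), and Nefh at 1851 and 1052 CPM (-0.81, -0.96 to -0.67). Piezo2 was -0.97 and Scn1a -0.60. In cells with at least 0.5% mitochondrial UMIs, 14 flox and 13 cKO, Nefh was -0.83 (-1.01 to -0.66) and Piezo2 -0.72 (-1.06 to -0.40). Those cells had a median of 45827.5 UMIs in flox and 16155 UMIs in cKO, and the part of depth was not tested. In those cells Etv1 was -0.30 (-0.50 to -0.10) and Scn1a -0.26 (-0.65 to 0.11), so neither was past 0.5 log2 units, and Runx3 was 0.11 (-0.41 to 0.62). Over all high-Pvalb cells the ranges of both genes overlapped between the libraries. Over all of them Runx3 had -0.30 (-0.75 to 0.13), an interval that includes 0. Of 15 synaptic genes 8 were called lower and none higher, with a median of -0.57. Of 28 genes of oxidative phosphorylation 3 were called higher and 1 lower.

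Fos, an immediate early gene of neuronal activity, was lower in cKO high-Pvalb cells, at 113 CPM against 383 CPM in flox (-1.76, -2.19 to -1.36). Its cell medians were 403 CPM in flox and 155 CPM in cKO. In flox 9 high-Pvalb cells held the haemoglobin gene Hbb-bs at 2913 to 4969 CPM, and their Fos stood at 865 CPM, with 435 to 1432 CPM over cells. No cKO high-Pvalb cell held 1000 CPM of Hbb-bs. In the other 19 flox cells Fos stood at 272 CPM with a cell median of 299.8 CPM, and the ratio without the 9 was -1.27 (-1.72 to -0.85). The part of blood RNA in the Fos difference was not tested. In cells with at least 0.5% mitochondrial UMIs the ratio was -1.33, and in members under 2000 CPM of Pvalb it was 0.44 (0.15 to 0.74). In the other neurons it was -0.05, at 303 and 292 CPM. Dst, a cytoskeletal linker whose loss causes sensory ataxia in mice, was lower as well, at 705 and 298 CPM (-1.24, -1.51 to -0.99).

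Myelin and satellite glia transcripts were among the furthest below in cKO. Mbp stood at 646 CPM in flox and 101 CPM in cKO high-Pvalb cells (-2.68) and Mal at 199.9 and 50.3 CPM (-1.99). Mbp did not rest on 1 cell, with cell medians of 297 and 57.8 CPM and -2.46 without the top cell of each library. All 6 measured satellite glia genes were called lower, with a median of -1.05. In cells with at least 0.5% mitochondrial UMIs 3 of the 6 were called lower and 1 higher, with a median of -0.80. The gene called higher there was Fabp7, a fatty acid binding protein of satellite glia, at 609 CPM in flox and 965 CPM in cKO (0.66, 0.44 to 0.88). Over all high-Pvalb cells Fabp7 was -0.84 (-1.02 to -0.67). In cells whose share of glial RNA was at most the median of all neurons, 6 flox and 4 cKO cells, Mbp was -1.18 (-2.38 to -0.15).

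**Figure D5:**
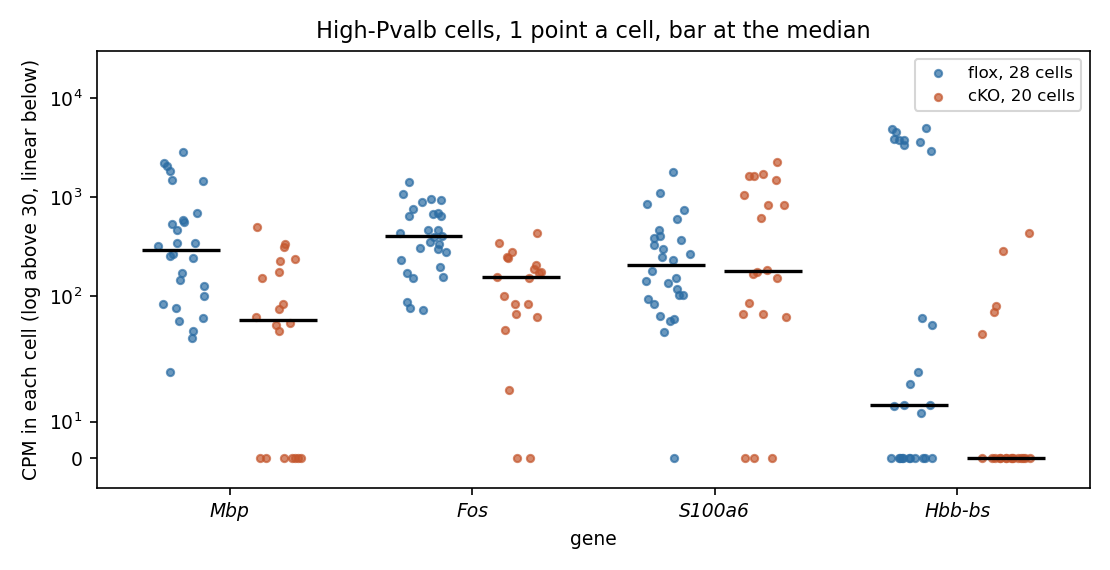
CPM of Mbp, Fos, S100a6 and Hbb-bs in each high-Pvalb cell (axis logarithmic above 30 CPM and linear below), 28 flox and 20 cKO cells, with a bar at the median. The median of Mbp is 297 CPM in flox and 57.8 CPM in cKO.

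The other ranges had differences of their own between the libraries. Under 400 CPM of Pvalb, 6.97% of 1319 genes were called higher in cKO and 8.04% lower, and from 400 to 2000 CPM 12% of 591 genes were called higher and 13.4% lower. Ret, the touch neuron receptor, stood at 654 CPM in flox and 199 CPM in cKO in the low range (-1.72, -1.99 to -1.45), and the Ret-high cells were 5 of 19 flox and 6 of 54 cKO members under 2000 CPM. Apoe stood at 181 and 859 CPM in the low range (2.24) and at 251 and 1289.7 CPM in the middle range (2.36). It was higher in the other cKO neurons as well, with a ratio of 1.10, where 4.73% of 12692 genes were called higher and 3.42% lower. Satellite glia genes thus did not move as 1 group, since over all high-Pvalb cells those that were measured were lower in cKO. S100a6 had 2.30 in the middle range and -0.25 in the low range.

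The median share of glial RNA was 0.997% in flox high-Pvalb cells and 0.473% in cKO ones, against 0.210% and 0.413% in the other neurons. In flox, high-Pvalb cells therefore carried more glial RNA than other neurons, and in cKO the shares were close. Mbp was lower in the other cKO neurons too, with a ratio of -0.95. The part of glial RNA in the other differences between libraries was not tested. Haemoglobin gave a like case, with Hbb-bs at 274 CPM in flox high-Pvalb cells of at least 0.5% mitochondrial UMIs, 1724 CPM in those under 0.5%, and 0 and 90.2 CPM in the corresponding cKO cells.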

How the data were processed

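Single-cell RNA-seq (10x 3′ chemistry, version 3.1, per the labels' protocols) was read from 2 libraries of mouse DRG. The deposited values are whole UMI counts per gene and barcode, made by the authors with cellranger 6.1.2 per the file headers. The submitters' processing notes instead name mm10, Scanpy and Cell Ranger 5.0.1. The handling of introns, free RNA and doublets before deposit is not stated in the sources read. The counts were used as deposited.

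Cells were chosen by the rule in the report, with no clustering. The members, the gene lists and the alternatives were chosen with earlier results of these data known, and the Pvalb ranges after the values were seen. Counts of all cells in a set were added up. Levels have exact Poisson, shares exact Clopper-Pearson and ratios exact conditional binomial 95% intervals, which cover counting error only. PCR duplicates were collapsed by UMI upstream. A level of 0 was set to a floor of 3 UMIs over the set in ratios. With 1 library per genotype there was no test, and genes were called by size: at least 1 log2 unit in both libraries against other neurons (at least 100 UMIs in each), and past 0.5 log2 units between libraries (at least 200 UMIs over both). Genes of the rule and mitochondrial genes were not counted.

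Genes were named by a rule: the 15 highest and 10 lowest against other neurons, and the 10 highest and 10 lowest between libraries, by the interval bound nearest 0. Predicted genes, sex-linked genes and those of haemoglobin and ribosomal proteins were left out of it. The 2 highest and 2 lowest of each list and all programme genes could also be named. Some genes that the rule names are not reported here. Chodl, Dst, Fos, Apoe, Fabp7, Hbb-bs and the genes of the mitochondrial and receptor splits were named after their values were seen. The ratio code was tested on simulated counts. Gene models came from GENCODE vM21 (GRCm38) and promoters from RefSeq (GRCm38.p6). Scrublet in scanpy 1.11.5 called 0 flox and 3 cKO doublets, too few to be of use, so the highest scores (7.21% and 6.78% of barcodes) were removed as an alternative. Other alternatives changed the gate, the depth, the minimum counts and the scaling (TMM from edgeR 4.0.16, size factors from DESeq2 1.42.0, R 4.3.3). Python 3.11.15 was used with NumPy 2.4.6, SciPy 1.17.1, pandas 2.3.3 and matplotlib 3.10.9.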

Additional observations from a re-analysis of the deposited data

How the results depend on the processing

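No paired analysis was possible because each genotype has 1 library, and for the same reason no replicate could be left out. The Pvalb range of at least 2000 CPM, the mitochondrial split and the values without the deepest or the Hbb-bs-rich cells were chosen after seeing the data. The share of neurons that were members, 2.88% in flox and 3.23% in cKO, was 3.99% and 4.23% with 1 Pvalb UMI, 1.72% and 1.40% after thinning to 5000 UMIs, 1.28% and 1.26% among neurons with at most the median glial share, and 1.72% and 0.872% with at least 2000 CPM of Pvalb. It was 1.92% in cKO with 5 Pvalb UMIs, 2.27% in cKO with 2 Ntrk3 UMIs, and 1.96% in flox with at least 0.5% mitochondrial UMIs. The cKO share was the larger as reported and with 1 Pvalb UMI, and the flox share was the larger after thinning, at a low glial share and at 2000 CPM.

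Genes called higher and lower than in other neurons, 542 and 516, were 211 and 338 after thinning and 128 and 135 against Pvalb-negative Ntrk2 or Ntrk3 neurons. They were 841 higher with a minimum of 20 UMIs and 845 lower in high-Pvalb cells. Genes called higher and lower in cKO, 161 and 260, were 14 and 15 after thinning, which leaves fewer genes with enough UMIs, 69 and 103 at a low glial share, and 572 and 1023 with a minimum of 50 UMIs. They were 103 higher with 2 Ntrk3 UMIs and 139 lower with at least 0.5% mitochondrial UMIs.

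Changes of sign were counted only for values of named genes and list medians of at least 0.5 log2 units between libraries, or 1 against other neurons. Of these values 10 changed sign, and the cause was not tested. Smaller values that changed sign are not among the 10. Between libraries these were Tmem233 after thinning (-0.19) and in high-Pvalb cells (-0.013), S100a9 in high-Pvalb cells (0.50), and, at a low glial share, Pcp4l1 (0.00039) and the median of satellite glia genes (0.38). Against other neurons it was Mafa in cKO high-Pvalb cells (-0.10), a bound and not a measured level, since its 0 UMIs were set to the floor of 3. Against Pvalb-negative Ntrk2 or Ntrk3 neurons these were Ly86 in flox (0.12) and, in cKO, Tmem233 (0.67), Gna14 (0.090) and A3galt2 (0.054). Of all other values, smaller ones included, 427 moved by more than their interval and 1014 did not. Depth limits the high-Pvalb comparison to 1373 genes, and genes of a few UMIs per library, such as Ptger3 and Ptger4, give wide intervals.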
